A study of Mus musculus with 36 samples.

Results

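The genes described here charge transfer RNAs, carry amino acids into the cell or make amino acids and one-carbon units. They are 34 in number: 18 cytosolic aminoacyl-tRNA synthetases, 7 amino acid transporters, 5 genes of serine and one-carbon synthesis, 2 of proline synthesis and 2 of transsulfuration. They were chosen by gene symbol, with earlier results of these data known, so the counts below are not an independent test. A probe was used when its detection p-value lay below 0.05 on at least 4 arrays. Of the 68 probes that the array table lists for them, 46 passed, which covered 28 of the 34 genes. Over the whole array 21126 of 45281 probes passed. Transcript levels were measured on 36 Illumina bead arrays of macrophages grown with M-CSF from the bone marrow of C57BL/6 mice aged 2 to 5 months. The study asked how cyclodextrin (CD), a ring-shaped sugar that takes up cholesterol, acts on cholesterol-loaded macrophages and whether the liver X receptors LXRα and LXRβ, nuclear receptors for oxidised cholesterol, are needed for it. The 4 dko groups, from mice without both receptors, were crystals then CD (cholesterol crystals for 3 h, then 10 mM CD for 4 h), crystals alone, CD alone and untreated, with 4 arrays each. The 4 wt groups received the same treatments, with 5 arrays each. The labels number wt arrays 1 to 5 and dko arrays 6 to 9 and do not say what a number stands for, so the p-values measure the spread between arrays, which may in part be technical.

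Aminoacyl-tRNA synthetases join each amino acid to its transfer RNA and so supply the ribosome. When amino acids run short or protein folding fails, kinases phosphorylate the translation factor eIF2α, and the transcription factor ATF4 is then made. ATF4 is known to switch on many synthetases, amino acid transporters and enzymes of serine, glycine, proline and asparagine synthesis, through an element that it binds together with a C/EBP protein. In macrophages this programme is known from responses to stress and to a lack of amino acids.

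The core of that element, TGATGNAA, was searched for on both strands in the RefSeq promoter windows of GRCm38.p6, which run from 250 bases before to 50 bases after a gene's start. Windows were matched for 24 of the 34 genes by symbol or, for Mars, by the RefSeq synonym Mars1, and 7 of these 24 (29.2%) held the core in a window. Of all 27025 genes with a window, 1219 (4.51%) held it. Among the measured genes with a window, 5 of the 12 that rose with crystals in wt cells (41.7%) and 1 of the 9 that were not called there (11.1%) held it. The difference between these shares was not tested. Rars, Wars and Lars also rose but had no matched window. Among the genes with a match, a second Tars probe was not called, and the Slc1a4 call was lost in 7 of 10 fits that left out 1 array. Of those not called, Yars, Slc7a1 and Phgdh lay close to the background. No other motif was searched, and a match is a description of the letters, not a site shown to be bound. The 6 measured genes with a match are shown because they are the ones the comparison of shares rests on. Each line gives bases -130 to +25 around the start in the direction of the gene, with the match in capitals.
Aars (chr8:111033712-111033866, plus strand): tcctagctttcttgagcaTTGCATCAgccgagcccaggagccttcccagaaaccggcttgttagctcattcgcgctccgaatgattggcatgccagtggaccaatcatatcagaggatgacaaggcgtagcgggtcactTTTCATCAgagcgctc
Gars (chr6:55037871-55038025, plus strand): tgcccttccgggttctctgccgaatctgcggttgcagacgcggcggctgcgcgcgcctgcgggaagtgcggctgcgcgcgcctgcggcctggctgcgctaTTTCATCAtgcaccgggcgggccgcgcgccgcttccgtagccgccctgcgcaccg
Iars (chr13:49682000-49682154, plus strand): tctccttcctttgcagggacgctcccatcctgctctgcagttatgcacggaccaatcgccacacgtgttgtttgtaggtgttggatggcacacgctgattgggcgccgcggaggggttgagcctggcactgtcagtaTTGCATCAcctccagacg
Tars (chr15:11399634-11399788, minus strand): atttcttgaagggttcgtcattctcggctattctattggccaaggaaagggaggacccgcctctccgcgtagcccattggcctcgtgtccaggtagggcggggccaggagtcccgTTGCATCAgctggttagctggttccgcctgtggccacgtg
Slc1a4 (chr11:20332689-20332843, minus strand): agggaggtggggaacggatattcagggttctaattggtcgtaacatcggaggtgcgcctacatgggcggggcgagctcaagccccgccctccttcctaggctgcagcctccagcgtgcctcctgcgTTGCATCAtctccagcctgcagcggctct
Yars (chr4:129189773-129189927, plus strand): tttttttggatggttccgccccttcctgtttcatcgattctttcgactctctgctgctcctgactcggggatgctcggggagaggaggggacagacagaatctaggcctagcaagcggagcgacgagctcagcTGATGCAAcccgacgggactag
Aars held 2 matches, at -112 to -105 and at +10 to +17. The match began at -30 in Gars, at +8 in Iars, at -15 in Tars, at -4 in Slc1a4 and at +4 in Yars. Yars, for tyrosyl-tRNA synthetase, is the match whose gene was not called, and its probe was detected on 8 of 36 arrays. The next 3 genes are shown because their changes with crystals, described below, were among the 4 largest, while these letters do not occur in their windows.
Sars (chr3:108445235-108445389, minus strand): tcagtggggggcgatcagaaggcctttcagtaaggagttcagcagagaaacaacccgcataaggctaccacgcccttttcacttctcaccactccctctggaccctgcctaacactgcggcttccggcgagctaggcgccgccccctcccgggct
Slc3a2 (chr19:8713873-8714027, minus strand): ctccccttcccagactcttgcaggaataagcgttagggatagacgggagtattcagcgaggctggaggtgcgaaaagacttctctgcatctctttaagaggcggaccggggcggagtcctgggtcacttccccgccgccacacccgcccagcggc
Mthfd2 (chr6:83317580-83317734, minus strand): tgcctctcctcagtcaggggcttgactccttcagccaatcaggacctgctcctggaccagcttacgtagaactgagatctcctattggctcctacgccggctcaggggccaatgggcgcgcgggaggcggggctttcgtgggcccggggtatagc

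The median probe of an array had 83.5 to 128 units of deposited intensity, and 15342 to 17892 probes were detected per array. All 9 macrophage markers in the table, among them Cd68, Csf1r and Emr1, were detected on every array. The probes for the deleted receptors did not check the labels: Nr1h3, which encodes LXRα, read 9.81 ± 0.14 in untreated dko cells and 9.52 ± 0.29 in untreated wt cells, and Nr1h2, which encodes LXRβ, read 9.36 ± 0.14 in dko and 8.89 ± 0.33 in wt cells (log2 level, SD, n = 4 and 5). Whether these probes lie inside the deleted parts was not tested. The arrays came on 6 slides. Replicates 1 to 3 of wt lay on slides 1 and 5, which held no dko array, while wt replicates 4 and 5 and all dko arrays shared slides 2, 3, 4 and 6.

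Cholesterol crystals raised 15 of the 28 measured genes in wt cells and lowered none (limma, adjusted p below 0.05 over all 21126 probes), while 6.31% of all probes were higher and 5.96% lower. The genes that rose were 9 of the 18 synthetases (Aars, Sars, Rars, Tars, Wars, Gars, Iars, Mars and Lars), the transporters Slc3a2 and Slc1a4, the serine and one-carbon genes Mthfd2, Shmt2 and Psat1, and Aldh18a1 of proline synthesis. The median change of the 28 was 0.63 on the log2 scale, against -0.00 over all probes, and 23 of the 28 changes were positive. At an unadjusted p below 0.05 there were 21 higher and 0 lower. Here and below a gene is represented by its probe with the highest mean level, levels are normalized log2 intensity, and changes are differences of log2 levels with their standard error (SE). These are bulk samples, in which a change in the cells' make-up and a change in RNA per cell cannot be told apart.

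The summed level of the mast cell markers was higher with crystals. Among the mast cell markers 4 had a probe and 2 of these passed the filter, and their summed linear level was 117 to 209 in dko cells with crystals against 45 to 56 in untreated dko cells, and 194 to 620 in wt cells with crystals against 41 to 49 in untreated wt cells. Kit was the only one of them detected on every array with crystals, and the sums do not show whether any other marker rose. The 6 stromal markers summed to 2497 to 3695 in untreated dko cells against 650 to 2167 in untreated wt cells. The 8 neutrophil and granule markers, of which 6 passed, summed to 211 to 910 in dko cells with crystals against 154 to 182 in wt cells with crystals, with no overlap, and to 200 to 831 in untreated dko cells against 153 to 210 in untreated wt cells, which overlap. The 9 macrophage markers summed to 67876 to 77129 in wt cells with crystals and to 77675 to 87030 in untreated wt cells. The part of other cell types in the changes given here was not tested.

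**Figure D1:**
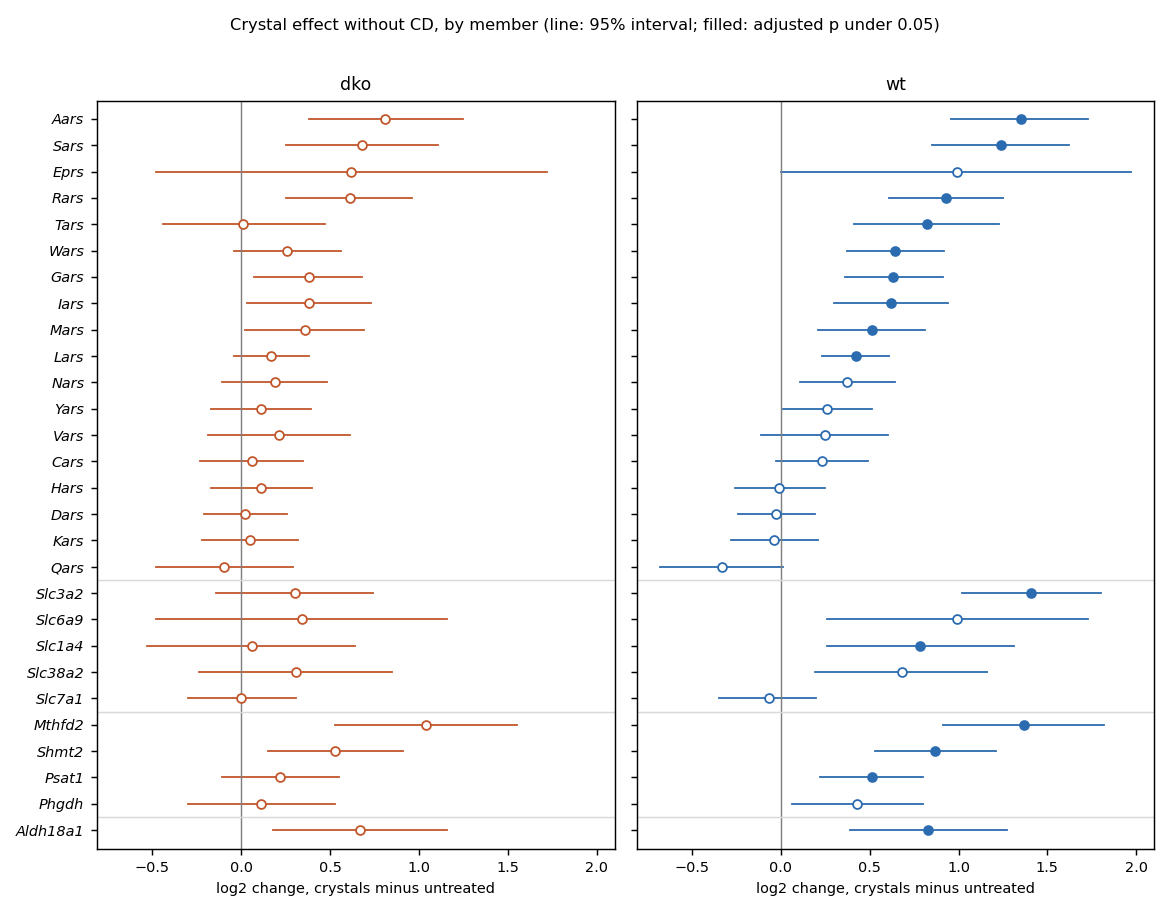
Changes with cholesterol crystals of the 28 measured genes, one line per gene, as the difference of mean log2 levels (x axis) with its 95% interval, for dko and for wt cells without CD. Filled marks are changes that passed the test: 15 in wt and 0 in dko.

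Among the synthetases the largest change was that of Aars, which loads alanine. Its level was 11.61, 11.38, 11.88, 11.62 and 11.51 on the wt arrays with crystals, against 10.06, 9.89, 10.02, 10.60 and 10.70 on the untreated wt arrays. The groups did not overlap, and untreated replicates 4 and 5 stood above replicates 1 to 3. The change was 1.35 (SE 0.19, 2.54-fold, adjusted p = 7.7e-06). Sars, which loads serine, read 8.50, 8.32, 9.03, 8.74 and 8.61 with crystals, against 6.98, 7.09, 7.34, 7.83 and 7.79 without. Again every array with crystals lay above every untreated one, and the change was 1.24 (SE 0.19, 2.35-fold, adjusted p = 2.1e-05). Its second probe, detected on 27 arrays, made the same call.

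Rars, which loads arginine, read 10.27, 9.64, 10.33, 9.78 and 9.58 in wt cells with crystals, against 8.75, 8.82, 8.82, 9.40 and 9.15 in untreated wt cells, a change of 0.93 (SE 0.16, adjusted p = 8.8e-05) with no overlap. Tars, which loads threonine, read 7.49, 7.44, 7.12, 6.81 and 6.95 with crystals, against 6.94, 6.65, 5.56, 6.18 and 6.38 without. The Tars groups overlapped, because untreated replicate 1 lay above replicate 4 with crystals, and the change was 0.82 (SE 0.20, adjusted p = 0.00488). A second Tars probe, detected on 29 arrays, changed by 0.15 (SE 0.15, adjusted p = 0.651), so the probes of this gene disagree. Wars, which loads tryptophan, read 8.52, 8.49, 8.64, 8.41 and 8.47 with crystals, against 7.95, 7.77, 7.41, 8.18 and 7.98 without. These groups were apart by 0.64 (SE 0.13, adjusted p = 0.00102), but 3 further Wars probes, detected on 35, 18 and 13 arrays, gave 0.60, 0.13 and 0.01 and were not called.

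**Figure D2:**
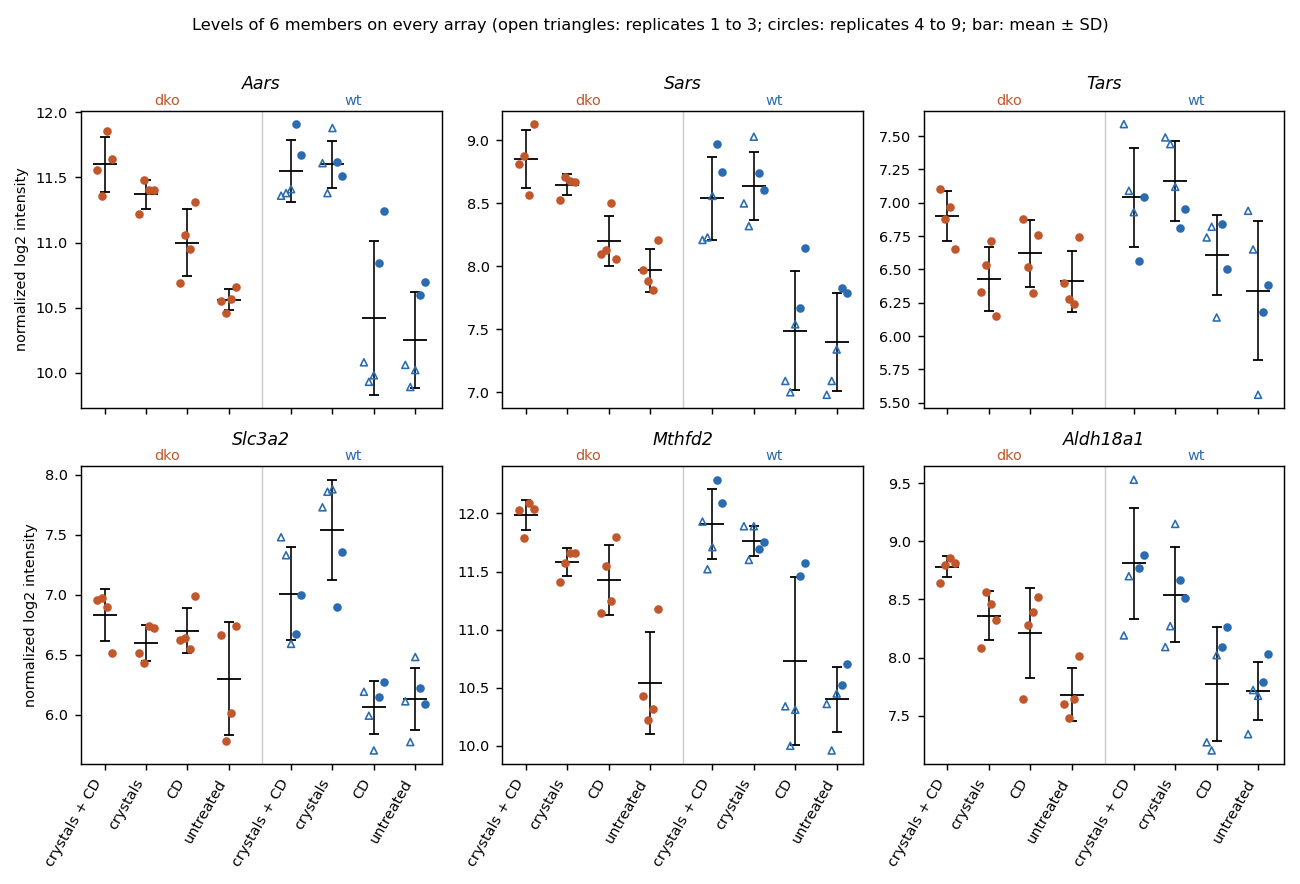
Normalized log2 level of named genes on every array (points) with group mean and SD (bars), for the 4 dko groups and then the 4 wt groups, each ordered crystals + CD, crystals, CD, untreated. In wt cells the arrays with crystals lie above those without in Aars, Sars, Slc3a2 and Mthfd2, except that the Mthfd2 groups with CD overlap.

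The other 4 synthetases that rose changed by less. Gars, for glycine, changed by 0.63 (SE 0.13, adjusted p = 0.00128), Iars, for isoleucine, by 0.62 (SE 0.16, adjusted p = 0.00617), Mars, for methionine, by 0.51 (SE 0.15, adjusted p = 0.0178) and Lars, for leucine, by 0.42 (SE 0.09, adjusted p = 0.00238). In each of these 4 the groups did not overlap. The second probes of Iars (0.66), Lars (0.51) and Rars (0.79) were called as well.

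Among the synthetases that were not called, some had narrow intervals around 0. Dars for aspartate (-0.03, 95% interval -0.24 to 0.19) and Kars for lysine (-0.04, interval -0.28 to 0.21) were detected on all 36 arrays and had intervals that end below the change of Lars. Qars, for glutamine, changed by -0.33 (SE 0.17, adjusted p = 0.243), and its second probe gave the same value. Vars, for valine, changed by 0.25 (adjusted p = 0.456) and Nars, for asparagine, by 0.37 (adjusted p = 0.0592). Eprs, which loads glutamate and proline, had the widest spread: it read 8.88, 7.71, 9.08, 8.95 and 9.08 with crystals in wt cells, against 7.12, 7.70, 7.14, 8.37 and 8.44 without. Its change of 0.99 (SE 0.48) gave an adjusted p of 0.214, and its second probe gave 0.83 (adjusted p = 0.168). Cars, Hars and Yars, detected on 17, 24 and 8 of 36 arrays, lay close to the background and changed by 0.23, -0.01 and 0.26.

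Slc3a2 had the largest change of all 28 genes. It encodes the heavy chain CD98, which pairs with light chains such as Slc7a5 and Slc7a11 to form amino acid exchangers. Its level was 7.73, 7.86, 7.88, 6.90 and 7.36 in wt cells with crystals, against 6.11, 5.77, 6.48, 6.22 and 6.09 in untreated wt cells. No array overlapped, and the change was 1.41 (SE 0.19, 2.66-fold, adjusted p = 4.6e-06). Slc1a4, a carrier of alanine, serine and cysteine, read 6.36, 5.96, 6.32, 5.87 and 6.23 with crystals, against 5.36, 4.90, 5.42, 5.39 and 5.76 without. The groups were apart, by 0.78 (SE 0.26, adjusted p = 0.0416), but this call was lost in 7 of 10 fits that left out 1 array, and the change lay between 0.67 and 0.88 over the 10. Slc38a2, a carrier of small neutral amino acids, changed by 0.68 (SE 0.24, adjusted p = 0.0582), with overlap. Its probes disagree, since the one detected on 18 arrays gave -0.24. Slc6a9, a glycine transporter, changed by 0.99 (SE 0.36, adjusted p = 0.0692), and its arrays with crystals ranged widely, from 5.89 to 7.87. Slc7a1, for cationic amino acids, was detected on no wt array with crystals and on 1 untreated wt array, so no fold is given.

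Mthfd2, the mitochondrial enzyme that oxidises one-carbon units carried by folate, rose as far as Aars. It read 11.89, 11.60, 11.89, 11.69 and 11.75 in wt cells with crystals, against 10.36, 9.96, 10.45, 10.52 and 10.70 in untreated wt cells. The groups did not overlap, and the change was 1.37 (SE 0.22, 2.58-fold, adjusted p = 5.9e-05). Shmt2, which splits serine into glycine and a one-carbon unit in mitochondria, read 7.65, 7.19, 7.69, 7.28 and 7.48 with crystals, against 6.55, 6.44, 6.60, 6.85 and 6.50 without. These were also apart, by 0.87 (SE 0.17, adjusted p = 4.1e-04), while a second Shmt2 probe that was detected on 6 arrays gave 0.29 and was not called.

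Psat1, the aminotransferase of serine synthesis, read 9.62, 9.60, 9.88, 9.36 and 9.75 with crystals in wt cells, against 8.95, 9.43, 9.10, 8.98 and 9.21 without. Untreated replicate 2 lay above replicate 4 with crystals, and the change was 0.51 (SE 0.14, adjusted p = 0.0156). Without the array of replicate 3 with crystals it was 0.45 and no longer called. Phgdh, the first enzyme of serine synthesis, was close to the background (detected on 25 arrays) and changed by 0.43 (SE 0.18, adjusted p = 0.132). Aldh18a1, which makes the precursor of proline from glutamate, read 8.09, 8.27, 9.15, 8.67 and 8.51 with crystals, against 7.34, 7.72, 7.67, 7.79 and 8.03 without. The arrays did not overlap, and the change was 0.83 (SE 0.22, adjusted p = 0.009).

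For 6 of the 34 genes no probe passed. Slc1a5, a glutamine carrier, had 5 probes, of which 1 was detected on 1 array and the others on 0. Pycr1, the last step of proline synthesis, had probes detected on 2 and 1 arrays. Psph, the phosphatase of serine synthesis, and Cth and Cbs of transsulfuration were detected on 0 arrays. For Slc7a5, the light chain that carries leucine, no probe was found under that symbol, and it was not analysed here.

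In dko cells crystals gave no call among the 28 genes (limma), where 0.417% of all probes were called. At an unadjusted p below 0.05 there were 9 genes higher and 0 lower. Of the 28 differences 27 were positive, with a median of 0.24, against -0.00 over all probes. Across genes the changes in dko and wt cells correlated at Pearson r = 0.79 and Spearman rho = 0.78 over the 28 genes, which are not independent replicates and were measured partly on the same slides. In 23 of the 28 genes the value in dko cells lay below that in wt cells.

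The largest change in dko cells was that of Mthfd2. It read 11.41, 11.57, 11.66 and 11.66 in dko cells with crystals, against 10.43, 10.22, 10.32 and 11.18 in untreated dko cells. The groups did not overlap, and the change was 1.04 (SE 0.25, 2.05-fold) with an adjusted p of 0.0518. The second Mthfd2 probe, detected on all 36 arrays, was called at 1.35 (SE 0.30, adjusted p = 0.0273). Aars read 11.22, 11.48, 11.40 and 11.40 with crystals, against 10.55, 10.46, 10.57 and 10.66 without, a difference of 0.81 (SE 0.21, adjusted p = 0.0926). Sars read 8.53, 8.71, 8.68 and 8.67 with crystals, against 7.97, 7.88, 7.81 and 8.21 without, a difference of 0.68 (SE 0.21, adjusted p = 0.204). In both genes every dko array with crystals lay above every untreated dko array, although neither passed the test. Tars was 0.01 and Slc1a4 was 0.06 apart in dko cells, with overlapping arrays.

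Whether the response differed between genotypes was tested as the crystal change in dko cells minus that in wt cells. Of the 28 genes 0 passed (limma), 2 were lower at an unadjusted p below 0.05, and 0.0331% of all probes were called. The median of this difference was -0.27 over the 28 genes. For Aars it was -0.53 (95% interval -1.12 to 0.05) and for Mthfd2 -0.33 (interval -1.01 to 0.35), and both intervals include 0 as well as a response in dko cells smaller by more than 0.53. It was largest for Slc3a2 at -1.11 (interval -1.70 to -0.52, adjusted p = 0.451) and next for Tars at -0.80 (interval -1.41 to -0.20, adjusted p = 0.864).

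Slc3a2 was also the 1 gene of the 28 called between genotypes in crystal-loaded cells, as lower, where 0.194% of all probes were lower in dko. It read 6.51, 6.43, 6.74 and 6.72 in dko cells with crystals, against 7.73, 7.86, 7.88, 6.90 and 7.36 in wt cells with crystals. No dko array reached the lowest wt array, and the difference was -0.94 (SE 0.21, adjusted p = 0.0266). The wt arrays nearest to dko were replicates 4 and 5, which shared slides with dko arrays. Only slide 2 held crystal-loaded cells of both genotypes. Within it the Slc3a2 difference was -0.27 (2 dko arrays and 1 wt array), a value that carries no test. With wt replicates 4 and 5 alone against the dko arrays the difference was -0.53 (SE 0.23, adjusted p = 0.823), and leaving out 1 array at a time gave -1.10 to -0.86 and ended the call in 7 of 9 fits, those without wt replicate 1, 2 or 3 or any dko replicate. In untreated cells Slc3a2 read 6.66, 5.78, 6.01 and 6.74 in dko, against 6.11, 5.77, 6.48, 6.22 and 6.09 in wt, which overlap. The untreated difference of 0.16 (SE 0.21) had an adjusted p of 0.805.

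In untreated cells 0 of the 28 genes were called between genotypes (limma), 4 were higher in dko at an unadjusted p below 0.05, and 0.185% of all probes were called. The median difference was 0.06. The difference of Sars was 0.56 (SE 0.20, adjusted p = 0.245). Its untreated levels were 7.97, 7.88, 7.81 and 8.21 in dko, against 6.98, 7.09, 7.34, 7.83 and 7.79 in wt, where replicates 4 and 5 lay among or next to the dko arrays and replicates 1 to 3 below all of them.

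The position of wt replicates 1 to 3 touches every comparison with wt cells. Taken over the 28 genes, the mean level of an array was 8.27 ± 0.08 in dko with crystals and 7.96 ± 0.12 in untreated dko (SD, n = 4), and 8.44 ± 0.15 in wt with crystals and 7.85 ± 0.11 in untreated wt (n = 5). Within the wt cells, the fit on replicates 1 to 3 alone called 16 of the 28 genes with crystals, at a median change of 0.75. The fit on replicates 4 to 9, in which wt cells have 2 arrays a group, called 3 in wt (Aars, Sars and Mthfd2; median 0.41) and 5 in dko (Aars, Sars, Rars, Mthfd2 and Aldh18a1; median 0.24). Over all probes it called 87 with crystals in wt and 261 in dko cells. In that fit the median of the difference between genotypes was -0.07, and Aars changed by 0.81 (SE 0.13) in dko cells and by 0.92 (SE 0.19) in wt cells. Mthfd2 changed by 1.04 (SE 0.17) in dko cells and by 1.11 (SE 0.24) in wt cells. The crystal change in wt cells was positive within each slide that holds both groups, with a median of 0.56 on slide 1, 0.37 on slide 2 and 0.85 on slide 5, and with 24 of 28 genes positive on each. In dko cells the medians were 0.21 on slide 2 and 0.38 on slide 6. These within-slide values rest on 1 or 2 arrays a group and carry no test.

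**Figure D3:**
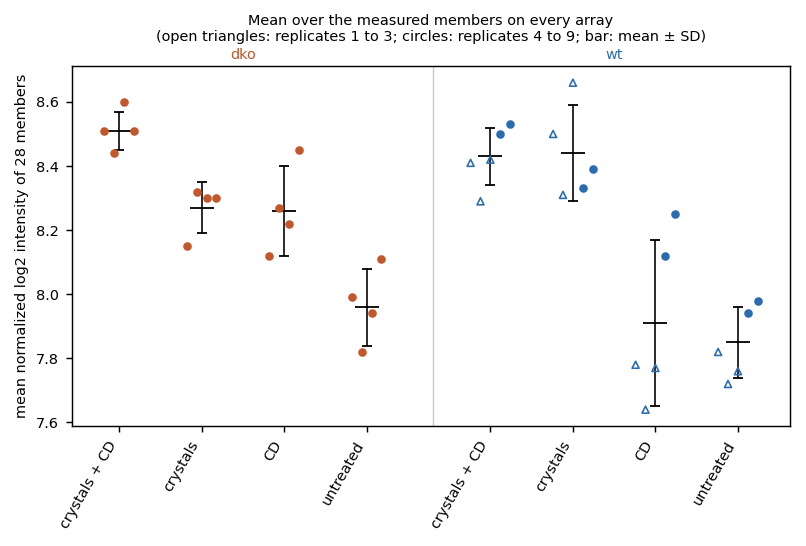
Mean normalized log2 level of the 28 measured genes on each array (y axis), by group, with dko on the left and wt on the right; bars are the group mean and SD, triangles are replicates 1 to 3 and circles replicates 4 to 9. In wt cells with CD alone the triangles lie at 7.64 to 7.78 and the circles at 8.12 and 8.25, next to the dko arrays.

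When CD followed, crystals again raised these genes in wt cells. Comparing crystals then CD with CD alone, 13 of 28 rose and 0 fell (limma), where 3.61% of all probes were higher and 3.08% lower. The median change was 0.50, against -0.00 over all probes. These arrays are others than those of the comparison without CD, but they carry the same replicate numbers and lay partly on the same slides. Same-numbered wt arrays with crystals then CD and with crystals deviated together (r = 0.446 to 0.708), so the 2 comparisons are not independent. The 11 genes called in both were 73.3% of the 15 and 84.6% of the 13, and the changes correlated at r = 0.89 and rho = 0.86 across the 28 genes. Aars read 11.36, 11.38, 11.41, 11.91 and 11.67 with crystals then CD, against 10.08, 9.93, 9.98, 10.84 and 11.24 with CD alone, a change of 1.13 (SE 0.19, adjusted p = 1.5e-04) with no overlap. Mthfd2 read 11.93, 11.52, 11.71, 12.29 and 12.09, against 10.34, 10.00, 10.31, 11.46 and 11.57. Here CD replicate 5 lay above replicate 2 with crystals then CD, and the change was 1.17 (SE 0.22, adjusted p = 6.7e-04).

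Slc3a2 lay between 6.59 and 7.48 on the wt arrays with crystals then CD, against 6.19, 5.99, 5.70, 6.15 and 6.27 with CD alone, without overlap. Its change was 0.95 (SE 0.19, adjusted p = 0.00135). Phgdh (0.70, SE 0.18, adjusted p = 0.0127) and Nars (0.58, SE 0.13, adjusted p = 0.0039) rose in this comparison and were not called without CD. Shmt2 rose by 0.56 (SE 0.17, adjusted p = 0.0344), a call that was lost in 6 of 10 fits that left out 1 array (0.46 to 0.69). Further probes of some called genes disagreed here. Those of Sars (0.49, adjusted p = 0.116) and Shmt2 (0.08, adjusted p = 0.842) were not called. Wars probes at 0.47 and 0.20 were not called, while another at 0.55 was (adjusted p = 0.0482). The second probes of Iars (0.60), Lars (0.62), Rars (0.68) and Mthfd2 (1.33) were called as well. Tars, Mars, Slc1a4 and Psat1 were called without CD and not with it, at 0.43, 0.46, 0.52 and 0.35. The test of the difference between the 2 crystal changes in wt cells called 0 of 28 genes (limma), with 0 also at an unadjusted p below 0.05, and 0.0379% of all probes, so these calls are not shown to differ.

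In this comparison slide and group went together for wt replicates 1 to 3, whose arrays with crystals then CD all lay on slide 1 and whose CD arrays all lay on slide 5, so the 2 cannot be told apart there. Slide 6, which held 1 array of each group, gave a median of 0.26 with 21 of 28 genes positive. With slide as a fixed term 5 genes were called (Aars, Lars, Mthfd2, Sars and Slc3a2) in place of 13. Arrays of the same number deviated together here (r = 0.538 to 0.718). With the number as a block 15 genes were called, Mars among the higher ones and Qars as lower in addition to the 13. Over all probes 556 were called with slide as a fixed term and 1962 with the block, against 1412.

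In dko cells crystals then CD against CD alone called 0 of 28 genes (limma), with 8 higher and 0 lower at an unadjusted p below 0.05 and 0.431% of all probes called. The median was 0.27, and 25 of 28 changes were positive. Sars read 8.81, 8.88, 8.57 and 9.13 in dko cells with crystals then CD, against 8.10, 8.13, 8.50 and 8.06 with CD alone. All 4 lay above the CD arrays, by 0.65 on average (SE 0.21, adjusted p = 0.335). Aars was 0.60 (SE 0.21, adjusted p = 0.492) and Mthfd2 0.55 (SE 0.25, adjusted p = 0.828) apart.

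**Figure D4:**
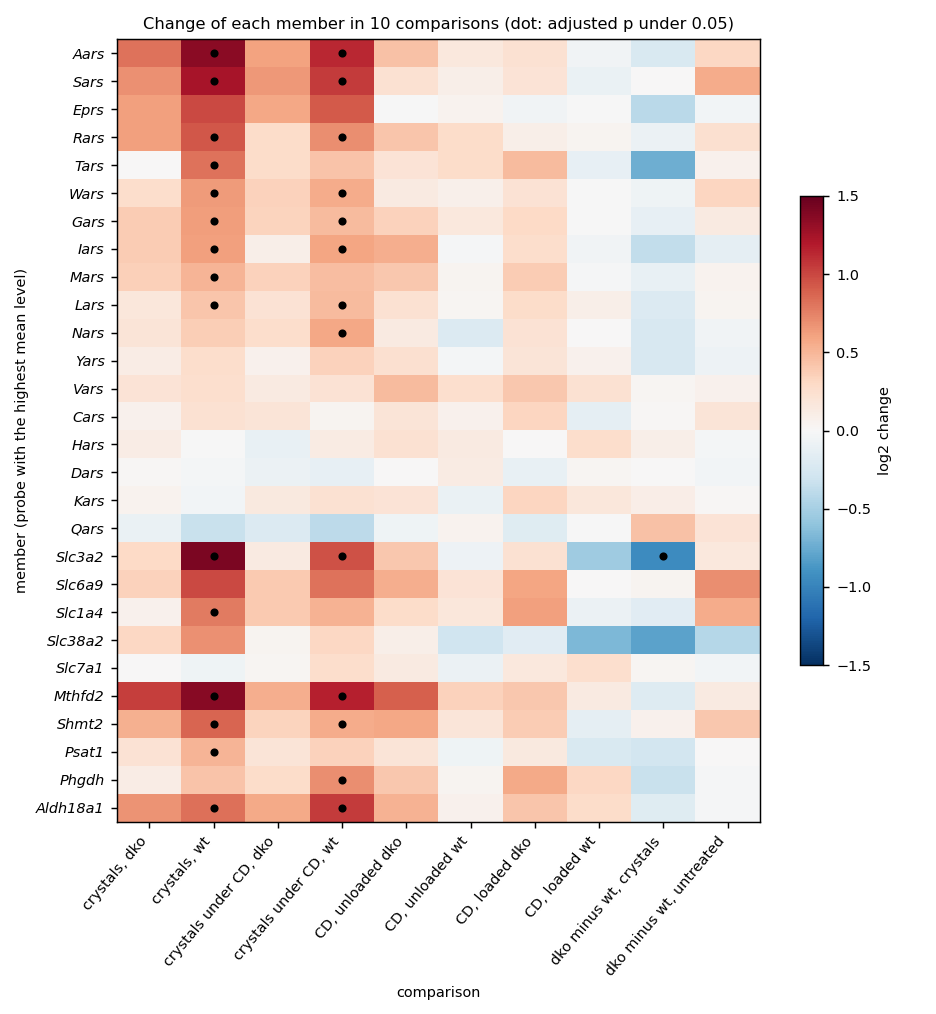
Change of each of the 28 measured genes (rows, grouped by role) in the comparisons of the study (columns), as the difference of mean log2 levels in colour (red higher and blue lower in the group with crystals, with CD or of dko genotype). Dots mark changes that passed the test, which lie in the crystal comparisons of wt cells (15 and 13 genes) and, for Slc3a2, between genotypes in loaded cells.

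CD changed none of the 28 genes past the threshold, whether crystals had been given or not. In unloaded dko cells, CD against untreated called 0 genes (limma), with 10 higher and 0 lower at an unadjusted p below 0.05 and 1.42% of all probes called. The changes had a median of 0.23, against -0.02 over all probes, and 26 of 28 were positive. Within slides the median was 0.08 on slide 3 (18 of 28 positive) and 0.63 on slide 6 (27 of 28). These values rest on 1 or 2 arrays a group and carry no test. In unloaded wt cells 0 were called, 0 reached an unadjusted p below 0.05, the median was 0.06 and 0.795% of all probes were called. In crystal-loaded dko cells, crystals then CD against crystals called 0, with 8 higher at an unadjusted p below 0.05, a median of 0.24 and 1.57% of all probes called. In crystal-loaded wt cells 0 were called, with 1 higher and 2 lower at an unadjusted p below 0.05, a median of -0.01 and 0% of all probes called.

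Mthfd2 showed the largest difference with CD in unloaded dko cells. It read 11.14, 11.55, 11.25 and 11.80 with CD, against 10.43, 10.22, 10.32 and 11.18 in untreated dko cells, a difference of 0.90 (SE 0.25, adjusted p = 0.0616). Only the untreated replicate 9 reached into the range of the CD arrays. Within slides the Mthfd2 difference in dko cells was 0.33 on slide 3 and 1.58 on slide 6. In unloaded wt cells Mthfd2 read 10.34, 10.00, 10.31, 11.46 and 11.57 with CD, against 10.36, 9.96, 10.45, 10.52 and 10.70 without. Replicates 4 and 5 with CD stood above every untreated array and replicates 1 to 3 did not, so that the difference was 0.90 (SE 0.24) over replicates 4 and 5 and -0.04 (SE 0.17) over replicates 1 to 3.

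That split held for the genes as a set. The median difference with CD in unloaded wt cells was 0.23 over replicates 4 and 5, the value found in dko cells, and -0.05 over replicates 1 to 3. In crystal-loaded wt cells it was 0.21 over replicates 4 and 5 and -0.14 over replicates 1 to 3, against 0.24 in dko cells. The 2 sets of wt replicates lay on different slides, and whether slide, culture or animal goes with the split cannot be told apart. For wt replicates 4 and 5, no slide held both groups of either comparison, so CD and slide cannot be told apart there. Within slide 5, which held replicates 1 to 3, the median was 0.01 in unloaded wt cells, with 14 of 28 genes positive. Within slide 1 it was -0.08 in loaded wt cells, with 9 of 28 positive. Shmt2 read 7.45, 7.55, 7.51 and 7.75 in unloaded dko cells with CD, against 6.91, 6.88, 6.85 and 7.29 without, apart by 0.58 (SE 0.19, adjusted p = 0.121).

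Slc38a2 and Slc3a2 were the genes named here with the lowest values when CD followed crystals in wt cells. Slc38a2 read 10.20, 9.39, 9.36, 9.19 and 9.77 with crystals then CD, against 10.66, 10.35, 10.56, 9.79 and 9.89 with crystals, a difference of -0.67 (SE 0.24, adjusted p = 0.445). Its probes disagree here too, since another probe detected on 36 arrays gave -0.26 and the one detected on 18 arrays gave 0.29. Slc3a2 differed by -0.53 (SE 0.19, adjusted p = 0.467). In both the groups overlapped, while no array with crystals then CD reached the mean of the crystal group.

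Genes of the same pathway that are not members were counted from lists. These lists too were chosen with earlier results of these data known, so their counts are a description. Of 17 measured genes of the ATF4 pathway, crystals raised 10 in wt cells and lowered 0, with a median change of 0.89, where 6.31% of all probes rose. The largest were Trib3, a pseudokinase that restrains ATF4 signalling (3.26, SE 0.29, adjusted p = 2.3e-09), Ddit3, which encodes the factor CHOP (2.90, SE 0.19, adjusted p = 3.5e-12), and Chac1, which degrades glutathione (2.89, SE 0.41, adjusted p = 8.9e-06). In dko cells 2 of the 17 rose with crystals, Trib3 by 1.80 (SE 0.32, adjusted p = 0.00273) and Ddit3 by 1.51 (SE 0.21, adjusted p = 1.6e-04), where 0.417% of all probes were called in either direction. Atf4 itself rose by 1.03 (SE 0.17, adjusted p = 1.0e-04) in wt cells. The transcript level does not report the protein, whose synthesis is known to be controlled at translation.

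The mitochondrial synthetases, which load the transfer RNAs of that organelle, were 15 measured genes with a median change of 0.08 with crystals in wt cells. Of them 1 rose (Ears2, 0.51, adjusted p = 5.6e-04) and 1 fell (Cars2, -0.40, adjusted p = 0.0326), which is close to the 6.31% of all probes that rose and the 5.96% that fell. The 18 cytosolic synthetases had a median of 0.46, and the difference between these lists was not tested. Of 5 further cytosolic subunits and scaffolds, 2 rose: Eef1e1, a scaffold of the multi-synthetase complex (0.84, adjusted p = 0.0108), and Farsb, a subunit of phenylalanyl-tRNA synthetase (0.52, adjusted p = 1.7e-04).

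Of 19 other amino acid transporters 3 rose and 1 fell with crystals in wt cells, beside 6.31% of all probes that rose and 5.96% that fell, and the median was 0.06. Slc7a11, the cystine carrier that pairs with Slc3a2, rose by 3.30 (SE 0.64, adjusted p = 4.7e-04), Slc6a8, a creatine transporter, by 1.19 (SE 0.19, adjusted p = 3.5e-05) and Slc15a3, a peptide and histidine transporter, by 1.14 (SE 0.17, adjusted p = 2.1e-05). Of 26 other genes of amino acid and one-carbon metabolism 3 rose and 4 fell, beside the same shares of all probes, with a median of -0.03. Ass1, which makes argininosuccinate on the way to arginine, rose by 1.43 (SE 0.21, adjusted p = 1.8e-05), and Asns, asparagine synthetase, which is also counted in the ATF4 list, by 1.32 (SE 0.22, adjusted p = 7.8e-05). Ass1 was the gene of these lists that CD raised in unloaded cells of both genotypes, by 1.01 (SE 0.24, adjusted p = 0.0243) in dko and by 0.89 (SE 0.21, adjusted p = 0.0371) in wt cells.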

How the data were processed

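Total RNA of 36 samples was read on Illumina bead arrays. Per the labels, total RNA was extracted with TRIzol and turned into biotinylated cRNA. Intensity is the unit of the table the authors deposited, not normalized between arrays as far as the values show, with a detection p-value beside each intensity, as the deposited table's headers name it. The deposited series matrix holds log2 of the same intensity (largest difference 5.57e-05), with array medians of 6.38 to 7.00, so nothing about its scale or centring stays unknown. The submitters' processing notes name Partek, without a version. A line that names no probe was not used.

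From the intensity table, limma 3.58.1 in R 4.3.3 (neqc) corrected the background from the detection p-values, added an offset of 16, took log2 and applied quantile normalization. Probes with a detection p below 0.05 on at least 4 arrays were kept (21126). One model with 8 group means was fitted to all 36 arrays (lmFit and eBayes, 28 residual and 4.16 prior degrees of freedom), and p-values, two-sided, were adjusted by Benjamini-Hochberg over all 21126 probes, with calls at 0.05. The number of arrays limits the precision. A gene's probe with the highest mean level stood for it, and others were named where their call differed. Not every difference in sign between uncalled probes was named. The fit was tested on simulated data with independent noise on each array, which cannot speak to slides or to arrays that deviate together. The members and gene lists were chosen with earlier results of these data known. Values of every array were given for the called genes with the largest changes: up to 5 synthetases, 4 transporters and 4 metabolic genes, plus any called in a comparison with 5 or fewer called, and up to 3 genes of each other list were named. One gene that this rule names is not reported here. Eprs, Slc38a2 and the dko arrays of named genes were added after their values were seen. Promoter sequences came from RefSeq (GRCm38.p6), and sequence from chromosome 18 was not printed.

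Same-numbered arrays of a genotype were checked for deviations in common. For crystals then CD against CD (r = 0.538 to 0.718) and against crystals (r = 0.446 to 0.708) in wt cells, each pair's correlation exceeded 0.1, and the number was used as a block in an alternative. The pairing comes from the data alone, and in wt cells the number coincides in part with the slide. In dko cells the same check gave r = -0.705 to -0.507 for crystals then CD against CD, and values of both signs in the other comparisons. The numbers therefore do not pair the dko arrays, and block counts for dko cells rest on shared labels only. Alternatives were other scalings, background corrections and filters, slide terms, subsets of the replicates and leaving out single arrays.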

Additional observations from a re-analysis of the deposited data

Results flagged for a closer look

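Among the 88 combinations of a named gene and a group, 4 held an array far from the others of its group by Dixon's test at 95%, a rate that chance gives in about 1 of 20 groups. Sars read 8.50 in dko cells with CD on replicate 8, above the other 3 arrays. Slc3a2 read 6.51 in dko cells with crystals then CD on replicate 9, below the other 3. Mthfd2 read 11.79 in dko cells with crystals then CD on replicate 7, below the other 3. Shmt2 read 7.29 in untreated dko cells on replicate 9, above the other 3. The 4 marks fell on 3 different replicate numbers and were all in dko groups.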

How the results depend on the processing

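The count of 15 genes raised by crystals in wt cells became 5 with median scaling, 3 with the series matrix values, which carry no normalization, and 3 with replicates 4 to 9 only. It was 14 to 17 under the remaining alternatives and 13 to 17 when single arrays were left out. The alternatives called 87 to 3240 of all probes there, against 2592, and 412 higher and 235 lower with median scaling and 106 and 37 with the series matrix, against 1332 and 1260. For crystals under CD in wt cells the 13 became 3 with median scaling, 2 with the series matrix, 5 with slide as a fixed term, 1 with replicates 4 to 9 only and 6 when only the groups in the contrast were fitted (10 to 15 with single arrays left out). Over all probes these alternatives called 96 to 1962, against 1412, with 71 higher and 25 lower in the series matrix against 762 and 650, and the series matrix moved the median of all probes by 0.16. For crystals in dko cells the 0 became 1 without background correction, 1 with probes detected on at least 18 arrays, 1 with slide as a random block, 2 with slide as a fixed term, 5 with replicates 4 to 9 only, 4 with the replicate block and 4 with only the groups in the contrast (0 to 1 with single arrays left out). Over all probes they called 3 to 261, against 88. For crystals under CD in dko cells the 0 became 1 with slide as a fixed term, 2 with replicates 4 to 9 only and 1 with the replicate block. Over all probes the alternatives called 21 to 141 there, against 91. For CD in unloaded dko cells the 0 became 1 with slide as a random block, 1 with slide as a fixed term, 3 with replicates 4 to 9 only and 2 with the replicate block (0 to 1 with single arrays left out). Over all probes the alternatives called 0 to 567 there, against 299. The 1 gene called between genotypes in loaded cells, Slc3a2, became 0 with median scaling, with the series matrix, without a filter on dim probes, with slide as a fixed term, with replicates 4 to 9 only and with only the groups in the contrast (0 to 1 with single arrays left out). In that comparison median scaling and the series matrix put the median of all probes at -0.12 and -0.22. The alternatives called 5 to 162 of all probes there, against 72. No member was called in the other comparisons under the alternatives run. The cause of these shifts was not tested. Of the named genes' changes, 1396 had the same direction and call under other settings, 29 gained and 60 lost a call, and 0 changed direction past the threshold. The replicate block changed no other call where the numbers pair the arrays. Elsewhere the numbers are only shared labels. The fit on replicates 1 to 3 was chosen after seeing the data. With 4 or 5 arrays a group and genes such as Yars and Slc7a1 near background, small changes could not be resolved.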

Other observations

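Nupr1, a small stress-induced chromatin protein of the ATF4 list, rose with CD in dko cells both without crystals (1.29, SE 0.30, limma adjusted p = 0.0214) and with them (1.42, SE 0.30, adjusted p = 0.0124), where its levels were 10.47 ± 0.42 with crystals then CD and 9.04 ± 0.23 with crystals (SD, n = 4). In crystal-loaded dko cells CD also raised Slc7a2, a carrier of arginine and lysine, by 1.52 (SE 0.31, adjusted p = 0.00957), to 7.15 ± 0.91 against 5.63 ± 0.50, with overlapping arrays. Ass1, which acts in arginine synthesis, rose there to 7.79 ± 0.33 against 6.79 ± 0.07 (SE of the difference 0.24, adjusted p = 0.0271). Slc1a2, a glutamate carrier, was raised by crystals in dko cells (0.61, SE 0.13, adjusted p = 0.0233) but was detected on 0 of the 4 untreated dko arrays, so that it was at least 1.38-fold higher. Between genotypes in crystal-loaded cells Ddit3 was lower in dko by 1.04 on the log2 scale (-1.04, SE 0.20, adjusted p = 0.0104), at 8.98 ± 0.24 in dko (n = 4) and 10.02 ± 0.59 in wt cells (n = 5). Shmt1, the cytosolic relative of Shmt2, was also lower in dko there (-0.94, SE 0.20, adjusted p = 0.0213). Slc1a2 was higher in dko there (0.70, SE 0.13, adjusted p = 0.00509), at 5.14 ± 0.34 in dko and 4.45 ± 0.12 in wt cells, and since it was detected on 0 of the 5 wt arrays it was at least 1.41-fold higher. Beside these genotype differences, the neutrophil and granule markers summed to 211 to 910 in dko cells with crystals against 154 to 182 in wt cells with crystals, and their part in them was not tested. For Ddit3, Shmt1 and Slc1a2 the genotype differences on the slides that both genotypes share are not given here.

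Some genes of amino acid breakdown and nitrogen metabolism fell with crystals in wt cells. Bckdha, a subunit of the enzyme that breaks down branched-chain amino acids, fell to 7.96 ± 0.21 against 8.62 ± 0.17 in untreated wt cells (SD, n = 5; -0.66, SE 0.15, adjusted p = 0.0035). Mtr, methionine synthase, changed by -0.54 (SE 0.12, adjusted p = 0.00169) and Glud1, glutamate dehydrogenase, by -0.38 (SE 0.10, adjusted p = 0.00839). In all 3 of these genes the arrays with crystals did not overlap the untreated ones. Under CD, Aldh1l1, which oxidises formyl-folate in the cytosol, was lower with crystals in wt cells (-1.03, SE 0.19, adjusted p = 6.1e-04).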
